A study of Ictidomys tridecemlineatus with 15 samples.

Results

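The genes of RNA-binding motif (RBM) proteins, together with Cirbp, were taken from the count table of nascent transcription in the liver of 13-lined ground squirrels. A unit of the table belongs to the set when one of its gene names is Cirbp, or Rbm followed by a digit or by x or s. This rule gave 27 of the 6324 units of the table, 16 of them with a single gene name and 11 in which the authors had merged overlapping genes, and it used no measured value. Of 41 RBM and Cirbp symbols in RefSeq (assembly mIctTri1.hap1, used for names alone), 27 were found among the units. The other 14, among them the cold-inducible Rbm3, are not analysed here. All 27 units had at least 10 counts in every library, as did 6292 of all units.

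Nascent RNA was measured by global run-on sequencing (GRO-seq), in which polymerases already engaged in isolated nuclei are allowed to extend their transcripts with a labelled nucleotide, so that reads show ongoing transcription and not how much of an RNA has accumulated. The 14 libraries came from frozen livers of females from a laboratory colony whose hibernation was followed by implanted temperature recorders. They comprised 3 SA animals (active, before the onset of hibernation), 3 IBA (aroused between bouts of torpor), 3 Ent (entering torpor), 3 ET (early torpor) and 2 LT (late torpor, replicates 1 and 3). SA and IBA animals are warm, ET and LT animals are cold, and Ent animals are cooling. The run-on itself was done at one fixed temperature above that of a torpid animal, so that the counts show where polymerase was engaged and not its speed in the cold. By the study's animal list the animals were collected in 3 seasons. All ET animals came from the second season, the IBA animals from the third and the LT animals from the first, while SA and Ent each held animals of both the first and the third. ET and its season therefore cannot be told apart. Of the warm states, only SA shared a season with a cold state, LT.

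Most RBM proteins carry 1 or more RNA recognition motifs and act on pre-mRNA in the nucleus, as parts of the spliceosome, as regulators of splice site choice, or in the export, editing and decay of transcripts. CIRBP and RBM3 are the family's known cold-inducible members, whose mRNAs rise in mammalian cells at mildly lowered temperature. Several members come in pairs or trios of close relatives, such as RBM5, RBM6 and RBM10, RBM26 and RBM27, or RBM39 and RBM23. Splicing is also known to respond to body temperature in mammals.

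The libraries held 3713883 to 8884763 counts. Counts were scaled to CPM (counts scaled to a common library size) with TMM library factors, and every adjusted p given is from edgeR's quasi-likelihood test, fitted to all 6324 units with the 5 states as groups, with Benjamini-Hochberg adjustment across the whole table. Units were called at an adjusted p of 0.001, the study's threshold. Positions are those of the units in the HiC_Itri_2 genome, with the first 500 nt of each gene removed by the authors. Replicates of a state differed by 14.8 to 88.4 times the sampling variance (chi-square per degree of freedom), so none was a duplicate. CPM are shares of each library and do not show the total amount of transcription, and in whole liver fewer cells of a type and less nascent RNA per cell cannot be told apart. Units of 10 of 12 listed hepatocyte marker genes were found, none was at 0 in any library, and their summed level was 18450 to 30100 CPM in SA and IBA, 13780 to 16610 in Ent and 6689 to 12310 in ET and LT. The units of 3 of 6 endothelial markers summed to 186 to 241 CPM in SA and IBA and 124 to 203 in ET and LT, and the single cholangiocyte marker with a unit, Sox9, to 16.5 to 41.0 and 7.07 to 18.1. For leukocytes, 1 of 9 markers was found, in a merged unit, and for stellate and erythroid cells 0 of 7 and 0 of 4. The part of these shifts in the RBM results was not tested.

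RBM units differed between the warm and the cold states in both directions, on the lower side at about the share of all units. The cold and warm libraries came mostly from different seasons, and their contrast could not be fitted with season as a covariate. Differences between cold and warm states, here and for the single units below, therefore cannot be told apart from season. In ET and LT against SA and IBA, 10 of the 27 units were higher, against 18.6% of all units, and 5 were lower, against 17.6% of all units. Of the 16 single-gene units 6 were higher and 4 lower, and of the 11 merged units 4 were higher and 1 lower. The shares of all units were not split by kind. The higher units described here were Rbm22, Rbm42, Rbm10, Rbm5, Rbm34 and Rbm27 among the single genes, and the merged units holding Rbmx, Rbm14 and Rbm39. The lower ones were Rbm20, Rbm41, Rbm12 and Rbm47, and the merged unit of Rbm23. The Cirbp unit was not called. The median log2 fold change of the 27 units, -0.02, was close to the -0.04 of all units, and the median of the absolute change was 0.64, against 0.54 for all units. All 5 cold libraries lay above all 6 warm libraries in 12 units, against 21.1% of all units, and below them in 5, against 19.5%. Together the units took 0.485% to 0.524% of the counts of SA and IBA libraries, 0.524% to 0.551% in Ent and 0.630% to 0.653% in ET and LT. With TMM scaling their sum was 5054 to 5355, 5232 to 5324 and 5857 to 6364 CPM. This sum leans on 2 large merged units and is not a rise of the whole set. Mean CPM in SA, IBA, ET and LT was 517, 412, 1032 and 1059 for the Rbm14 unit. It was 323, 344, 724 and 669 for the Rbm39 unit. Of the 27 units, 13 had a log2 fold change above 0 and 14 below.

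**Figure D1:**
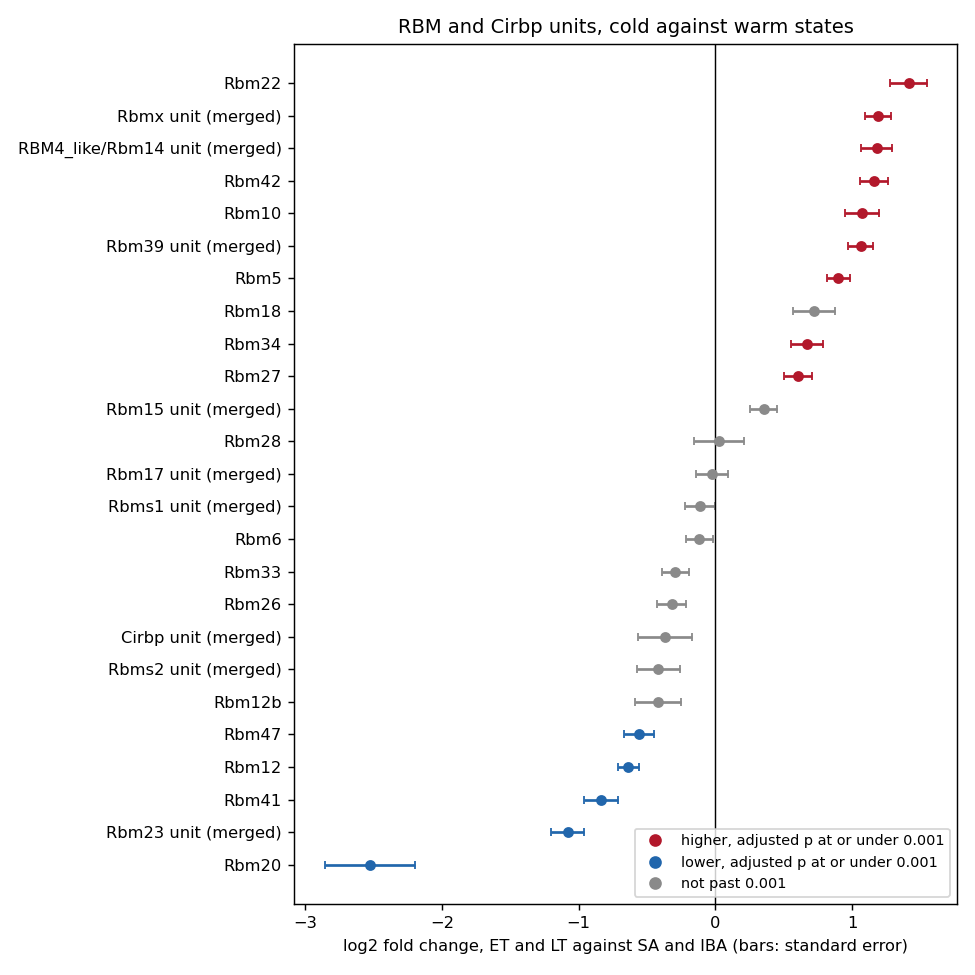
Log2 fold change of each RBM or Cirbp unit between the cold states (ET and LT) and the warm states (SA and IBA) on the horizontal axis, with bars for the standard error, and units in rows from the largest rise to the largest fall. Values run from 1.42 for Rbm22 to -2.53 for Rbm20, with units called higher in red, lower in blue and not called in grey. The 25 units described in the text are drawn.

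The cold-inducible gene Cirbp shares its unit with Efna2, CUNH19orf24, Midn, LOC110598826 and Atp5d (chromosome 2, 217177156 to 217222170, minus strand), so that its own transcription could not be separated from that of its neighbours. The unit had 297, 362 and 325 CPM in SA, 307, 381 and 355 in IBA, 342, 365 and 202 in Ent, 402, 192 and 239.5 in ET, and 228 and 265 in LT. The cold and warm libraries overlapped, with ET replicate 1 above all of the others. The log2 fold change between cold and warm states was -0.37 ± 0.20 (SE, adjusted p = 0.118), and it stayed between -0.55 and -0.26 with each library left out in turn. Of the steps from SA through IBA, Ent and ET to LT, the largest change was -0.20 ± 0.26 (SE, adjusted p = 0.639), between IBA and Ent, and the return from LT to IBA gave 0.49 ± 0.29 (SE, adjusted p = 0.179).

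Rbm22, whose protein contacts the catalytic RNA core of the spliceosome, had the largest rise of all RBM units. Its unit (chromosome 1, 142720755 to 142732262, plus strand) had 22.2, 22.0 and 17.7 CPM in SA, 23.0, 20.1 and 27.0 in IBA, 26.7, 34.6 and 41.2 in Ent, 68.0, 63.2 and 61.4 in ET, and 54.6 and 52.0 in LT. Every Ent library except replicate 1 lay above the warm ones, and every cold library lay above Ent. The fitted level was 2.67-fold higher in the cold, at a log2 fold change of 1.42 ± 0.14 (SE, adjusted p = 2.34e-06). Rbm42 encodes a spliceosome-associated protein that also binds hnRNP K (chromosome 16, 10960966 to 10971578, plus strand). It had 27.0, 22.6 and 24.0 CPM in SA, 24.7, 23.0 and 22.4 in IBA, 33.8, 36.1 and 40.8 in Ent, 63.8, 56.2 and 54.7 in ET, and 47.5 and 50.7 in LT. The 3 ranges of warm, Ent and cold libraries did not overlap, and the log2 fold change was 1.16 ± 0.10 (SE, adjusted p = 1.51e-06).

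In contrast, Rbm41, which codes for a protein of the minor spliceosome (chromosome 10, 80002659 to 80072227, minus strand), had 74.0, 58.6 and 74.6 CPM in SA, 74.5, 61.0 and 62.1 in IBA, 52.8, 40.4 and 49.2 in Ent, 30.9, 37.3 and 34.5 in ET, and 46.0 and 37.6 in LT. All Ent and cold libraries lay below all warm libraries. The log2 fold change of Rbm41 was -0.84 ± 0.12 (SE, adjusted p = 6.76e-05), and the level was 1.78-fold higher in the warm states. For Rbm18 every cold library, from 31.3 to 40.3 CPM, was above every warm library, from 16.9 to 27.3, but its log2 fold change of 0.72 ± 0.15 (SE, adjusted p = 0.00125) did not reach the threshold of 0.001.

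**Figure D2:**
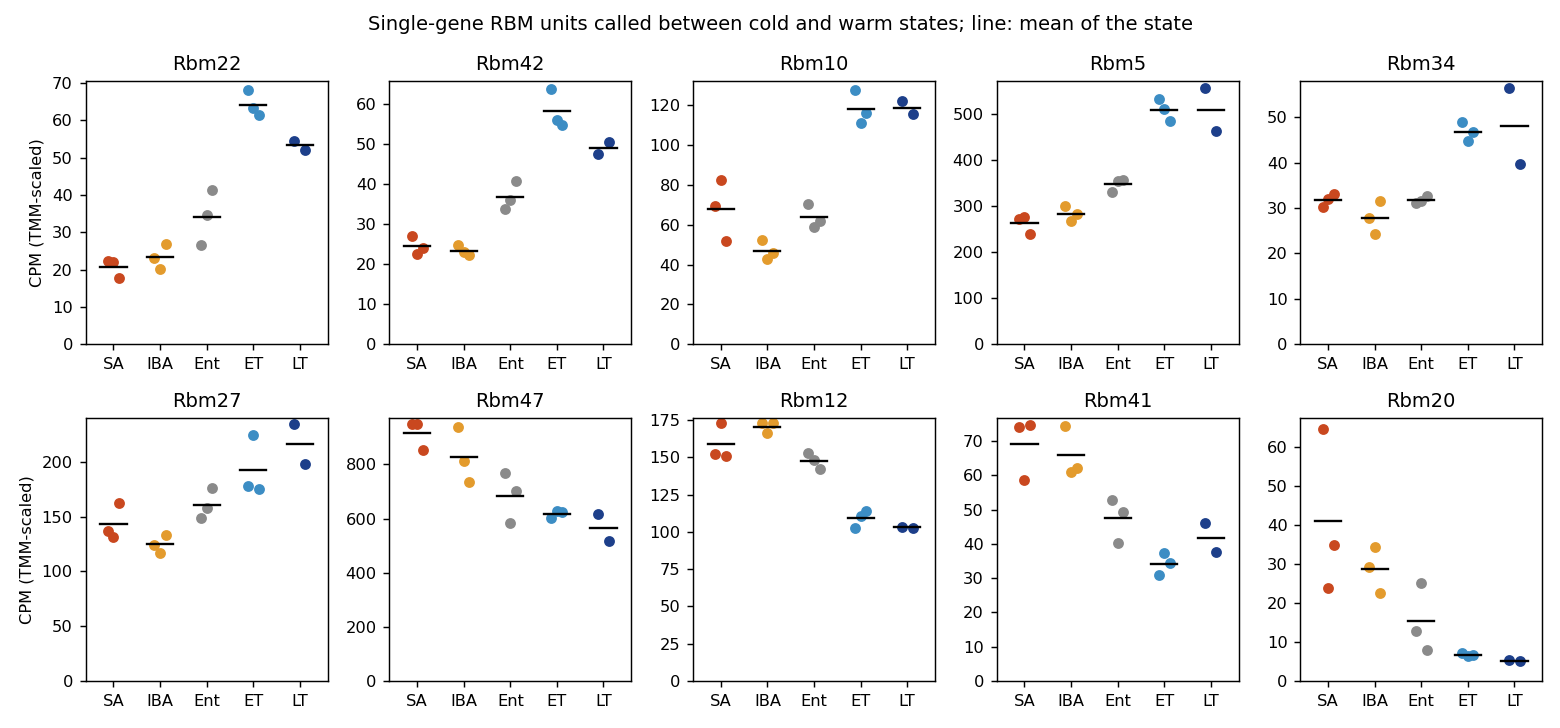
CPM of the 10 single-gene RBM units called between cold and warm states (vertical axes, starting at 0), with 1 point for each library and a line at the mean of each state, SA to LT from left to right. The cold ET and LT points are above all SA and IBA points for Rbm22, Rbm42, Rbm10, Rbm5, Rbm34 and Rbm27 and below them for Rbm47, Rbm12, Rbm41 and Rbm20.

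RBM5, RBM6 and RBM10 are related regulators of alternative splicing that are known as tumour suppressors. Of their genes Rbm5 and Rbm10 were higher in the cold and Rbm6 was not called. Rbm5 (chromosome 7, 64880010 to 64922767, plus strand) had 272, 277 and 239 CPM in SA, 300.4, 267 and 282 in IBA, 330.0, 354 and 357 in Ent, 533, 511 and 484 in ET, and 555 and 462 in LT. Levels rose from warm to Ent to cold libraries without overlap, and the log2 fold change between cold and warm was 0.90 ± 0.09 (SE, adjusted p = 2.18e-06). Rbm10 (chromosome 10, 33083754 to 33111544, plus strand) had 69.4, 82.5 and 51.6 CPM in SA, 52.3, 42.6 and 46.0 in IBA, 70.5, 58.8 and 62.0 in Ent, 128, 111 and 116 in ET, and 122 and 115 in LT. Cold libraries were all above the others, whereas Ent and SA libraries overlapped. Its log2 fold change was 1.07 ± 0.12 (SE, adjusted p = 9e-06). From SA to IBA, Rbm10 had the lowest value of the single-gene RBM units, -0.53 ± 0.17 (SE, adjusted p = 0.0868), which did not pass.

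Rbm6 lies next to Rbm5 on the same strand and ends 5405 nt before it begins (chromosome 7, 64774907 to 64874604, plus strand). The Rbm6 unit had 259, 258 and 289.7 CPM in SA, 261, 230.1 and 236 in IBA, 248, 204 and 229.6 in Ent, 205, 253 and 247 in ET, and 265 and 208 in LT. Warm and cold libraries overlapped, with a log2 fold change of -0.12 ± 0.10 (SE, adjusted p = 0.324). Within a library the ratio of Rbm5 to Rbm6 counts does not depend on library scaling. It ran from 0.825 to 1.19 in warm libraries and from 1.96 to 2.60 in cold ones, with Ent between them (log2 ratios of 0.41 to 0.79). These ratios, and those of the pairs that follow, were chosen after the values were seen and are given as a description, with no test. The ratio of Rbm10 to Rbm5 counts overlapped between warm and cold libraries, at 0.160 to 0.298 and 0.217 to 0.250. The overlap was with SA alone, at log2 ratios of -2.21 to -1.75 in SA and -2.21 to -2 in the cold. The IBA libraries, at -2.65 to -2.52, lay below all cold ones.

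RBM39 and RBM23 are close relatives of the large U2AF subunit, which recognizes the 3' splice site, and the units that hold their genes went in opposite directions. Rbm39 shares its unit with Nfs1, a cysteine desulfurase gene (chromosome 5, 173591481 to 173650681, minus strand). This unit had 359, 300.1 and 309.9 CPM in SA, 348, 325 and 358 in IBA, 446, 489.9 and 536 in Ent, 737, 775 and 660.2 in ET, and 719.7 and 619 in LT. The ranges of warm, Ent and cold libraries did not overlap, and the log2 fold change was 1.06 ± 0.09 (SE, adjusted p = 1.44e-06). Rbm23 shares its unit with Prmt5, which encodes an arginine methyltransferase of spliceosomal proteins (chromosome 5, 34980738 to 35008977, minus strand). It had 44.1, 57.2 and 51.6 CPM in SA, 56.6, 49.96 and 48.7 in IBA, 36.6, 39.9 and 31.6 in Ent, 33.1, 26.9 and 29.7 in ET, and 18.1 and 21.2 in LT. All cold libraries lay below all warm ones and both LT libraries below the 3 ET libraries, and the log2 fold change was -1.08 ± 0.12 (SE, adjusted p = 7.84e-06). The ratio of the Rbm39 unit to the Rbm23 unit was 5.25 to 8.14 in warm and 22.2 to 39.7 in cold libraries. In a merged unit the share of each gene in the change is not known.

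Rbm20 had the largest fall. RBM20 is best known for controlling the splicing of titin in heart muscle, and its liver unit was the weakest of the 27 per length, at 0.229 CPM per kb in SA and 0.0291 in LT (chromosome 1, 23908983 to 24088628, minus strand). Its levels were 64.6, 23.9 and 34.8 CPM in SA, 29.3, 34.3 and 22.7 in IBA, 12.9, 25.2 and 8.0 in Ent, 7.22, 6.48 and 6.54 in ET, and 5.44 and 5.01 in LT. All cold libraries lay below the warm ones, and SA replicate 1 stood above the others. The cold states were 5.76-fold lower than the warm states, at a log2 fold change of -2.53 ± 0.33 (SE, adjusted p = 2.86e-05), and leaving out single libraries gave -2.66 to -2.29. The lowest count of the unit in a library was 33.

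Of the other units for regulators of splicing, the merged unit of an RBM4-like gene, Rbm14 and Ccs (with the unnamed models G20558 and G20554) was higher in the cold and that of Rbm17 was not called. RBM4 regulates splicing, RBM14 is a paraspeckle protein, and Ccs encodes a copper chaperone (chromosome 3, 6480798 to 6562487, minus strand). RBM4 genes have near-identical copies in mammals, and reads that match several places equally are left out by unique alignment, so this level is uncertain. The unit had 511, 491 and 548 CPM in SA, 373, 452 and 411 in IBA, 601, 709 and 554 in Ent, 1245, 951 and 901 in ET, and 1088 and 1030.3 in LT. Cold libraries were all above the others, and the log2 fold change was 1.18 ± 0.11 (SE, adjusted p = 2.54e-06). The Rbm17 unit, merged with the model ENSSTOG00000034502, gave -0.02 ± 0.12 (SE, adjusted p = 0.875), with warm and cold libraries overlapping. Rbm17 encodes a splicing factor that acts at the 3' splice site.

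RBMX, also called hnRNP G, is a splicing regulator encoded on the X chromosome of mammals, and its gene shares a unit here with the small nucleolar RNA SNORD61 (chromosome 10, 105146390 to 105184376, minus strand). This unit had 125, 106 and 103 CPM in SA, 112, 111 and 126 in IBA, 154, 148 and 151 in Ent, 238, 273 and 239 in ET, and 302 and 239 in LT. Warm, Ent and cold libraries formed ranges that did not overlap. The log2 fold change of 1.19 ± 0.09 (SE, adjusted p = 5.73e-07) had the smallest adjusted p of the 27 units.

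**Figure D3:**
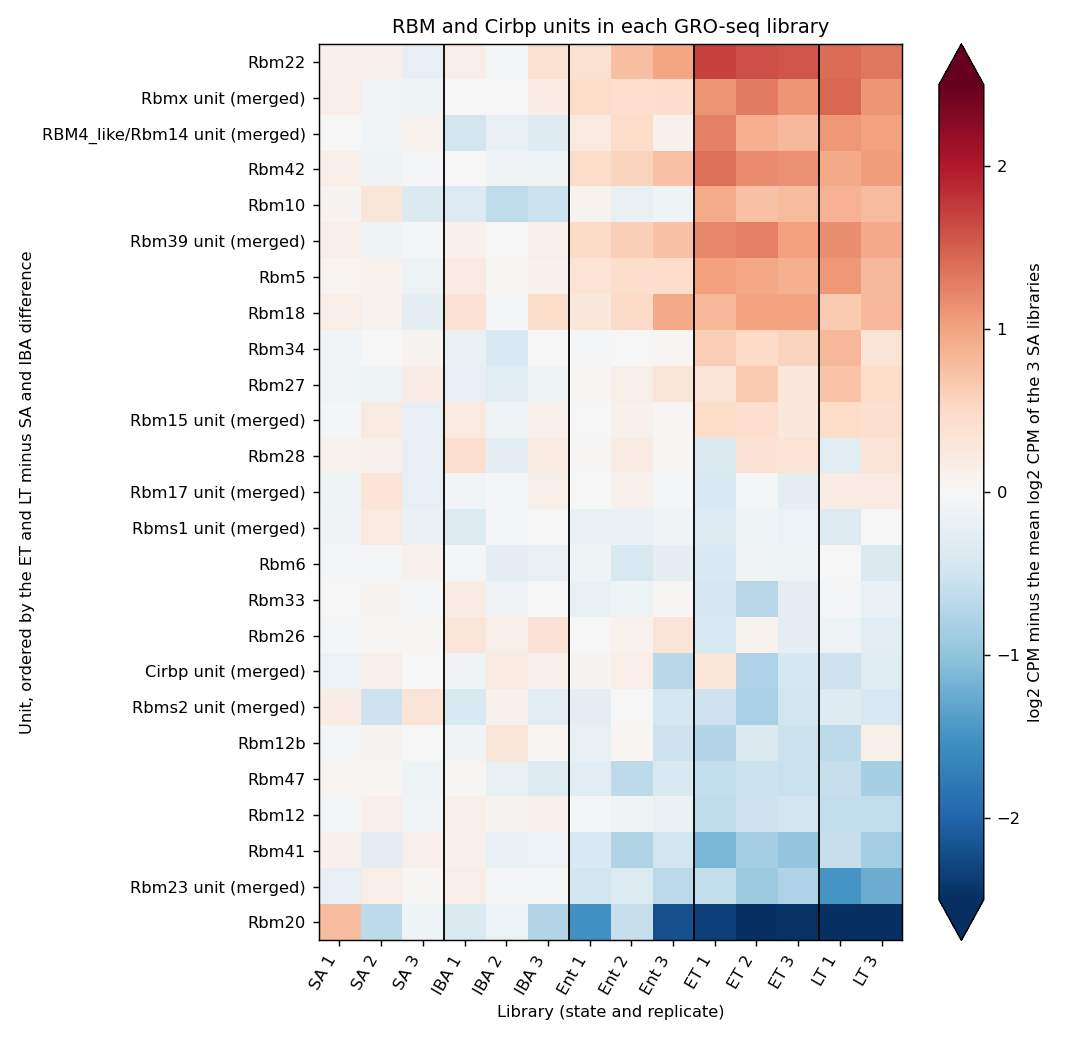
Log2 CPM of each of 25 RBM or Cirbp units (rows, ordered by the difference between cold and warm states) in each of the 14 libraries (columns), relative to the mean of the 3 SA libraries (color scale, in log2 units, capped at 2.5 either way). The upper rows turn red and the lower rows blue in the ET and LT libraries, with paler colors in Ent, and the Cirbp row shows no common direction.

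The nuclear exosome adaptors RBM26 and RBM27 are relatives that link polyadenylated nuclear RNA to decay. Rbm27 (chromosome 1, 146811626 to 146907732, minus strand) had 137, 131 and 163 CPM in SA, 124, 117 and 133 in IBA, 149, 158 and 176 in Ent, 178, 225 and 175 in ET, and 235 and 198 in LT. Every cold library was above every warm one, SA replicate 3 being the highest of the warm libraries, and the log2 fold change was 0.61 ± 0.10 (SE, adjusted p = 2.01e-04). Without LT replicate 1 this change was 0.54 and no longer past the threshold. Rbm26 (chromosome 4, 126758675 to 126835939, plus strand) had 184, 195 and 194 CPM in SA, 235, 213 and 244 in IBA, 191, 203 and 238 in Ent, 145, 202 and 161 in ET, and 176 and 159 in LT. Its warm and cold libraries overlapped, and the log2 fold change of -0.32 ± 0.10 (SE, adjusted p = 0.0158) was not called. Warm libraries had 0.527 to 0.838 counts of Rbm27 per count of Rbm26, and cold libraries 1.09 to 1.34. The log2 ratio in Ent, -0.43 to -0.36, lay within the range of SA, -0.57 to -0.26, and above that of IBA, -0.93 to -0.86.

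**Figure D4:**
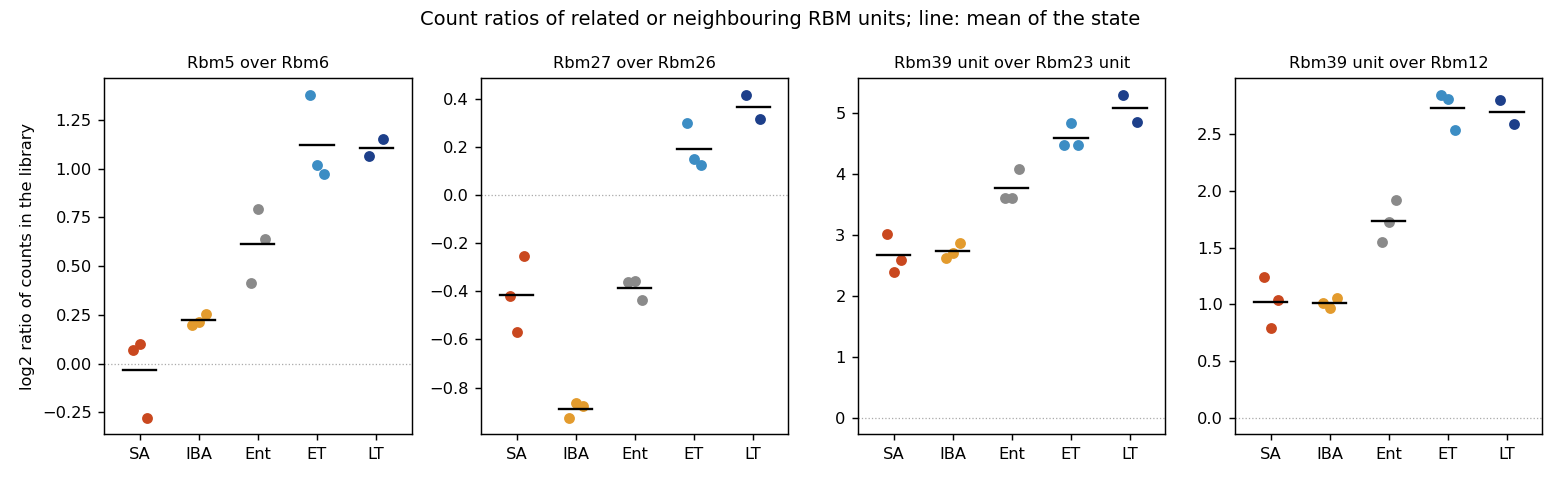
Log2 ratio of the counts of a pair of RBM units within each library (vertical axes, each with its own scale), for Rbm5 over Rbm6, Rbm27 over Rbm26, the Rbm39 unit over the Rbm23 unit and the Rbm39 unit over Rbm12, with 1 point for each library and a line at the mean of each state. In all of these 4 pairs the 5 cold libraries lie above the 6 warm libraries, by the widest margin for the Rbm39 and Rbm23 units (2.39 to 3.03 warm, 4.47 to 5.31 cold).

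Rbm12 encodes a large protein with several RNA recognition motifs, and begins 8004 nt past the end of the Rbm39 unit on the same strand (chromosome 5, 173541728 to 173583476, minus strand). It had 152, 173 and 151 CPM in SA, 173, 166 and 173 in IBA, 153, 148 and 142 in Ent, 102, 111 and 114 in ET, and 103 and 103 in LT. The cold libraries lay below all the others within a narrow range. The log2 fold change was -0.64 ± 0.08 (SE, adjusted p = 1.23e-05), of opposite sign to that of its upstream neighbour, and the ratio of the Rbm39 unit to Rbm12 went from 1.73 to 2.36 in warm libraries to 5.79 to 7.20 in cold ones. Rbm12b, which carries the same name but lies on chromosome 6, gave -0.42 ± 0.17 (SE, adjusted p = 0.0403), with LT replicate 3 the highest of the cold libraries and above 5 of the 6 warm ones. Its value was -0.65 without LT replicate 3 (adjusted p = 0.00516 in edgeR) and -0.25 without LT replicate 1 (adjusted p = 0.2).

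Rbm47 has a known role in the liver, where its protein is a cofactor of the enzyme that edits apolipoprotein B mRNA. Among the single-gene units it had the most counts (chromosome 14, 38282122 to 38455233, plus strand), with 949.9, 951 and 851 CPM in SA, 939, 811 and 734 in IBA, 767, 584 and 701 in Ent, 601, 628 and 624 in ET, and 617 and 515 in LT. Cold libraries were all below the warm ones, of which IBA replicate 3 was the lowest, and Ent replicate 2 was at the cold level. The log2 fold change of -0.56 ± 0.11 (SE, adjusted p = 6.09e-04) passed the threshold by little. It stayed between -0.63 and -0.50 with each library left out, and it was no longer past 0.001 without SA replicate 1 or 2, IBA replicate 1 or 2, any of ET replicates 1 to 3, or LT replicate 1 or 3. A1cf, which encodes another editing cofactor of the same complex, had -0.38 ± 0.17 (adjusted p = 0.0613).

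Of the genes for proteins of the nucleolus, Rbm34 was higher in the cold and Rbm28, whose protein takes part in making the large ribosomal subunit, was not called. Rbm34 (chromosome 9, 41097057 to 41116083, plus strand) had 30.1, 31.9 and 33.0 CPM in SA, 27.9, 24.2 and 31.5 in IBA, 31.2, 31.6 and 32.6 in Ent, 48.9, 44.8 and 46.8 in ET, and 56.4 and 39.6 in LT. Ent libraries were at the warm level and all cold libraries above them. Its log2 fold change was 0.67 ± 0.12 (SE, adjusted p = 2.74e-04), and without LT replicate 1 it was 0.53 and not past the threshold. Rbm28 gave 0.03 ± 0.19 (SE, adjusted p = 0.904), and its sign turned with single libraries left out (-0.15 to 0.17).

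The units for RNA methylation and export were not called. RBM15 brings the adenosine methyltransferase complex to its targets, and its unit, with the models G5128 and G5112, had 148, 178 and 132 CPM in SA, 179.9, 143 and 166 in IBA, 151, 163 and 154 in Ent, 209, 202 and 181 in ET, and 209.5 and 201 in LT. The cold libraries were all above the warm ones by a small margin, at a log2 fold change of 0.35 ± 0.10 (SE, adjusted p = 0.00650). Rbm33 gave -0.29 ± 0.10 (SE, adjusted p = 0.0203). The units of Rbms1 with SNORA3_ENSSTOG00000017162 and of Rbms2 with 5S_rRNA_ENSSTOG00000018310 and Spryd4 encode relatives that bind single-stranded DNA and RNA, and had log2 fold changes of -0.11 ± 0.11 (SE, adjusted p = 0.390) and -0.42 ± 0.16 (SE, adjusted p = 0.0327).

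Levels of different units can be set side by side per length. In SA the highest of the 27 was the Cirbp unit, at 7.29 CPM per kb, followed by the units of Rbm14 (6.33) and Rbm5 (6.14), and in LT it was the unit of Rbm14, at 13.0 CPM per kb, followed by Rbm5 (11.9) and the Rbm39 unit (11.3). In IBA the Cirbp unit was at 7.72 CPM per kb and in LT at 5.48. Across the 16 single-gene units, longer units had lower log2 fold changes between cold and warm states (Spearman's rho = -0.629), across the 27 units rho was -0.416, and across all 6324 units it was -0.0565. These points share the same libraries and are given as a description.

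Tested among all 5 states at once, 12 of the 27 units passed, against 25.5% of all units. Among them were Rbm22, Rbm42, Rbm10, Rbm5, Rbm20, Rbm41 and Rbm12 and the merged units of Rbmx, Rbm14, Rbm39 and Rbm23, with adjusted p from 1.09e-05 (Rbmx unit) to 6.71e-04 (Rbm41). Rbm27, Rbm34 and Rbm47, called between cold and warm states, had 0.00276, 0.00266 and 0.00689 in this test.

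The states follow each other in time, from SA in the active season to IBA, Ent, ET and LT in a torpor bout, and then back to IBA. Neighbouring steps share a group of libraries, so that their values are set side by side and not compared. From SA to IBA, across which both groups are warm, none of the 27 units passed an adjusted p of 0.05, against 5.22% of all units, and 2 had an unadjusted p under 0.05, against 22% of all units. At an adjusted p of 0.05 limma-voom called none and DESeq2 1. The share of all units was not counted for limma-voom in any step, nor for DESeq2 in this one. The highest value of a single gene was that of Rbm18, 0.28 ± 0.21 (SE, adjusted p = 0.496).

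From IBA to Ent, edgeR called none of the 27 units at 0.001, against 0.0316% of all units, as did limma-voom. DESeq2 called 2 at that threshold, Rbm42 and the Rbm39 unit, against 7.07% of all units. With edgeR 5 units passed an adjusted p of 0.05, against 16.1% of all units, and 12 had an unadjusted p under 0.05, against 32.5%. Among the 5 units were Rbm42 at 0.66 ± 0.14 (SE, adjusted p = 0.00956), the merged units of Rbm14 (0.59) and Rbm39 (0.51), which were higher in Ent, and that of Rbm23 (-0.52), which was lower. The lowest value of a single gene was that of Rbm20, -0.90 ± 0.40 (SE, adjusted p = 0.138), which did not pass 0.05.

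The step from Ent to ET covers the rest of the cooling to the torpid temperature. None of the 27 units passed 0.001 in edgeR, against 2.21% of all units, or in limma-voom, and 15 had an unadjusted p under 0.05 in edgeR, against 40.5% of all units. DESeq2 called 8 at 0.001, against 14.8% of all units, namely Rbm22, Rbm10, Rbm42, Rbm5 and Rbm12 and the units of Rbmx, Rbm14 and Rbm39. At an adjusted p of 0.05 in edgeR 9 units were higher in ET, against 15.3% of all units, and 2 were lower, against 13.4%. Rbm22 rose most, by 0.91 ± 0.18 (SE, adjusted p = 0.00301), followed by Rbm10 at 0.89 ± 0.16 (SE, adjusted p = 0.00220), the units of Rbm14 (0.73), Rbmx (0.72) and Rbm39 (0.56), and by Rbm42 (0.66), Rbm34 (0.56) and Rbm5 (0.55). The lower units were Rbm41 at -0.47 ± 0.16 (SE, adjusted p = 0.0437) and Rbm12 at -0.44 ± 0.10 (SE, adjusted p = 0.00658), while Rbm20, with the largest difference, had -1.18 ± 0.42 (SE, adjusted p = 0.0514) and did not pass 0.05. All ET animals are of a season of their own, so that this step cannot be told apart from season.

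Between ET and LT, both at low body temperature, no unit passed an adjusted p of 0.05 in edgeR, against 0.269% of all units, and 3 had an unadjusted p under 0.05, against 8.7% of all units. DESeq2 and limma-voom called none at either threshold, again without a share counted over all units. The largest values among single genes were 0.35 ± 0.24 (SE, adjusted p = 0.805) for Rbm12b and -0.37 ± 0.50 (SE, adjusted p = 0.937) for Rbm20.

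State means in Ent lay between the warm and cold levels for all 15 units called between those states. On the log2 scale the Ent mean had covered a median of 44.3% of the way from warm to cold, from 15.2% (Rbm34) to 63.4% (Rbm47). For all 2293 called units the median was 41.2%.

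LT to IBA is the return from torpor to a warm liver. In IBA 9 units were lower than in LT, against 9.69% of all units, and 2 were higher, against 7.73%. Among the lower units were Rbm10 at -1.34 ± 0.18 (SE, adjusted p = 1e-04), Rbm22 (-1.19), Rbm42 (-1.07), Rbm5 (-0.85) and Rbm27 (-0.79) and the units of Rbm14 (-1.36), Rbmx (-1.22) and Rbm39 (-0.96). The higher ones were Rbm12 at 0.73 ± 0.11 (SE, adjusted p = 2.52e-04) and the Rbm23 unit at 1.39 ± 0.18 (SE, adjusted p = 8.76e-05). The highest value was that of Rbm20, 2.45 ± 0.50 (SE, adjusted p = 0.00158), which missed the threshold.

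These calls between LT and IBA rest on few libraries. Without LT replicate 1 only the Rbmx unit passed 0.001, against 3.83% of all units. With IBA replicate 1, 2 or 3 or LT replicate 3 left out, 7, 5, 6 and 6 of the 27 units passed. For these runs the share of all units was not counted, so a drop particular to the RBM units is not shown. With season as a covariate, which sets IBA against LT through the SA and Ent animals, 1 unit passed 0.001, Rbm20, against 5.74% of all units. At an adjusted p of 0.05, 13 of the 27 units passed with the covariate, against 35.6% of all units, and 14 passed without LT replicate 1, against 33.8%.

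Within a season, at least 2 libraries on each side of a temperature change were found for the 2 Ent and 2 LT animals of the first season. Comparisons of SA with LT in the first season, and of SA and IBA with Ent in the third, would rest on 1 SA and 1 Ent library and were not run. In the 4 Ent and LT libraries alone 9 of the 27 units passed an adjusted p of 0.05, against 26.4% of all units. With all 3 Ent libraries 10 units passed it, against 27% of all units. Within the season Rbm10 was higher in LT by 0.88 ± 0.16 (SE, adjusted p = 0.0165), the Rbmx unit by 0.84 ± 0.16 (SE, adjusted p = 0.0176), Rbm22 by 0.80 ± 0.20 (SE, adjusted p = 0.0346), the Rbm14 unit by 0.69 ± 0.18 (SE, adjusted p = 0.0375) and Rbm5 by 0.57 ± 0.16 (SE, adjusted p = 0.0480). Lower in LT were Rbm20 at -1.86 ± 0.44 (SE, adjusted p = 0.0285), the Rbm23 unit at -0.96 ± 0.22 (SE, adjusted p = 0.0264) and Rbm12 at -0.55 ± 0.13 (SE, adjusted p = 0.0286). The ninth unit was that of Cirbp, lower in LT at -0.52 ± 0.15 (SE, adjusted p = 0.0490), against -0.30 ± 0.29 (SE, adjusted p = 0.480) with Ent replicate 3, an animal of the third season with 202 CPM, included.

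Reads that run past the end of a gene can fall into the unit that follows it. An upstream unit on the same strand ended within 20000 nt of 6 of the 27 units. Only units of the count table were searched, so a gene without a unit may lie closer. Of these 6, 3 were called higher in the cold and 2 lower, and of the other 21, 7 and 3, against 18.6% and 17.6% of all units. Among the 6, Rbm22 follows Dctn4 by 9357 nt, and Dctn4 had a log2 fold change of -0.09 (adjusted p = 0.483). The Rbm5 unit follows Rbm6, and Rbm34 follows Arid4b by 4573 nt, whose log2 fold change was -0.36 (adjusted p = 0.00333). Upstream of Rbm41, at 6397 nt, Nup62cl was higher in the cold by 1.68 (adjusted p = 7.45e-06), while Rbm41 itself was lower, as with the Rbm39 unit and Rbm12. The Cirbp unit follows Stk11 by 11720 nt, where the log2 fold change was 0.16 (adjusted p = 0.434). In all 6 cases the fitted change of the unit and that of its upstream neighbour had opposite signs. How far such reads enter the counts of these units was not tested.

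Genes for proteins that work with RBM proteins were listed by complex, with 10 further RNA genes listed as a temperature-responsive group, 58 in all. The group name was not checked for each of the 10 genes. Of these 58, 26 had a unit of their own, 21 lay in merged units and 11 were not found. In the cold 14 of the 26 were higher, against 18.6% of all units, and none was lower. By an unadjusted p under 0.05 1 was lower in edgeR, DESeq2 and limma-voom alike, A1cf, and all of these called none at an adjusted p of 0.05. The median log2 fold change of the 26 was 0.52. Of the 26, 5 were from the group listed as temperature-responsive, and of the 14 called higher, 3 were. That genes for splicing factors are higher in the cold was known from these libraries when the list was made, so the count is not independent evidence of that direction.

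Of the called genes of this list, the 8 with the largest changes are given here. Tra2b, a splicing activator that pairs with RBMX, was at 263 ± 37.2 CPM in SA (SD, n = 3), 244 ± 13.3 in IBA, 384 ± 16.7 in Ent, 1095 ± 159 in ET and 1035 ± 130.2 in LT (n = 2), a log2 fold change of 2.07 ± 0.11 (adjusted p = 1.65e-07). Its relative Tra2a had 1.23 ± 0.10 (adjusted p = 7.09e-07), Hnrnpa1 1.99 ± 0.13 (adjusted p = 2.3e-07) and the paraspeckle gene Sfpq 1.51 ± 0.11 (adjusted p = 3.7e-07). In this group 4 of 5 genes were called, and Pspc1 was not, at 0.12 ± 0.09 (adjusted p = 0.258). Both nuclear exosome genes with a unit were higher, namely the nuclease gene Exosc10 at 1.65 ± 0.10 (adjusted p = 1.9e-07) and Zfc3h1, whose protein works with RBM26 and RBM27, at 0.77 ± 0.10 (adjusted p = 2.35e-05). All 3 genes of the 3' splice site and U2 group were higher, with Sf3b1, the core subunit that holds the branch point, at 0.81 ± 0.11 (adjusted p = 2.6e-05). Of the genes listed as temperature-responsive 3 of 5 were called, with Srsf5 at 0.90 ± 0.09 (adjusted p = 3.42e-06). The catalytic partners of the spliceosome had 1 of 4 genes called, the adenosine methylation complex 1 of 3, the exon junction complex 0 of 3 and the editing partners 0 of 1.

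**Figure D5:**
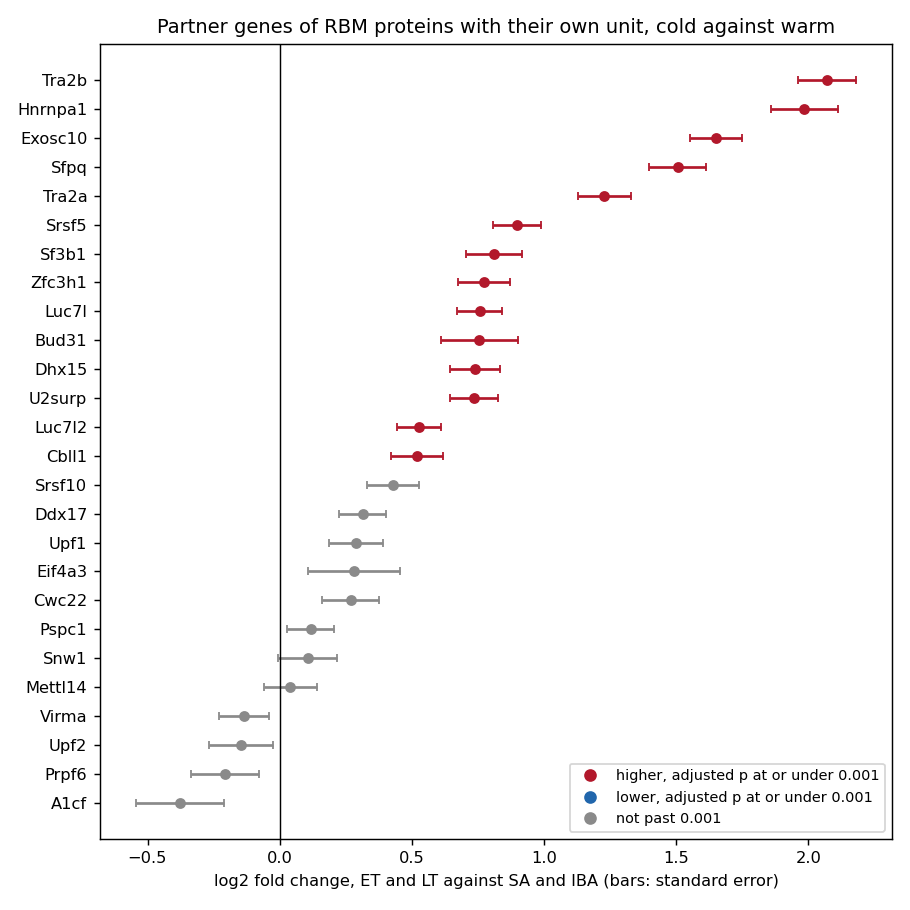
Log2 fold change between cold (ET and LT) and warm (SA and IBA) states for the 26 listed genes with a unit of their own. These are partners of RBM proteins and 5 genes listed as temperature-responsive. Bars show the standard error, and rows run from the largest rise down. Tra2b, Hnrnpa1, Exosc10 and Sfpq lead, 14 genes are called higher (red), and no gene is called lower.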

How the data were processed

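Liver GRO-seq libraries of 3 SA, 3 IBA, 3 Ent, 3 ET and 2 LT animals were used. LT replicate 2 was removed by the authors and is not analysed here. The authors trimmed the reads with cutadapt, aligned them with BWA to HiC_Itri_2, redefined gene bodies from the GRO-seq reads, removed the first 500 nt, merged overlapping genes and counted uniquely aligned reads with featureCounts. The strand setting of the counting is not given in the sources used here, so reads of overlapping antisense genes cannot be set apart. The deposited values are raw counts per unit, which were not normalized. They were fitted here as deposited, without a filter, in edgeR 4.0.16 (R 4.3.3; TMM, quasi-likelihood) with a model of the 5 states. Log2 CPM used a prior count of 2. Standard errors are the log2 fold change over the square root of F. By the labels each library is from an animal of its own.

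Named were Cirbp, every single-gene unit past 0.001 among the 5 states or between cold and warm, the largest rise and fall of each comparison, all merged units, and up to 8 partner genes. The members and lists were chosen with earlier results of these data known. The same comparisons were also run with limma-voom (limma 3.58.1), DESeq2 1.42.0, other scalings, filters and thresholds, and a replicate block. They were also run with single libraries left out and, except those with ET, with a season covariate. Their counts differed in places, as given in the text. The values of 2 merged units, which enter the fits and counts, are not reported here. The steps were tested on simulated data. Precision is set by 2 or 3 animals per state. Figures used matplotlib 3.10.9 (Python 3.11.15).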

Additional observations from a re-analysis of the deposited data

How the results depend on the processing

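Most of the units called between cold and warm states and described here stayed past 0.001 in every alternative fit that held them. The exceptions were Rbm47 and Rbm27, each without the single libraries named above, and Rbm34, without LT replicate 1 and with the replicate block. Merged units were not in the fit of single-gene units. No unit could be checked with season as a covariate, since this contrast could not be fitted with it. Rbm18 passed 0.001 in DESeq2, in the fit of single-gene units and without Ent replicate 3, and the Rbm15 unit in DESeq2. Other scalings moved the median of all units by 0.02 (RLE) and 0.01 (upper quartile), and left 10 units higher and 5 lower. Of all 6324 units, 1221 were higher and 1084 lower with RLE, and 1165 and 1099 with the upper quartile. The sign changed only in units near 0 and not called. The Rbm17 unit was at 0.014 with the replicate block and between -0.075 and 0.073 with single libraries left out and Rbm28 between -0.15 and 0.17.

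DESeq2 called more units than edgeR at 0.001 between IBA and Ent (2, against 7.07% of all units), between Ent and ET (8, against 14.8%) and between Ent and LT (6, against 14.3%), where edgeR called 0. The cause was not tested. At an adjusted p of 0.05 there were 19 of the 27 units among the 5 states, against 62% of all units, 12 higher in the cold, against 30.8%, and 9 lower, against 33.7%. At the same threshold there were 5 between IBA and Ent, against 16.1%, 11 between Ent and ET, against 28.8%, and 10 between Ent and LT, against 27%. In the fit of single-gene units, which leaves 16 of the 27, 7 were called among the 5 states and 6 between LT and IBA. With season as a covariate 1 was called between LT and IBA, against 5.74% of all units, and with single libraries left out 1 to 11 were. The share of all units was not counted in the fit of single-gene units. With single libraries left out it was counted only without LT replicate 1. Comparisons with ET could not be fitted with season.

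The samples share replicate numbers, but of 26 pairs of libraries with the same number 6 had deviations correlated above 0.1 (-0.263 to 0.234), so the numbers were not taken as pairs. With replicate number as a block, 10 units were called among the 5 states, 9 higher and 5 lower in the cold, and 7 between LT and IBA. The share of all units called with this block was not counted.

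All 27 units had at least 10 counts in every library, and Rbm20, with counts down to 33, had the largest standard error between cold and warm states among them (0.33).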
